A study of Homo sapiens with 8 samples.

Results

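The comparison described here set 8505C cells treated with an siRNA against NR1D1 beside 8505C cells treated with a control siRNA, with 1 RNA-seq library on each side. 8505C is an established cell line from a human anaplastic thyroid carcinoma, a form of thyroid cancer that has lost most thyroid function. These were 2 of the 8 libraries of a study that changed NR1D1 in 4 thyroid cancer lines. The submitters labelled the genotype of the control library WT and that of the other library NR1D1 knockdown. No further treatment was labelled for either library. For the time of harvest and the siRNA sequences, nothing was found in the sources read. The members were all protein-coding genes with a mean of at least 5 TPM over both libraries. TPM is a read count corrected for gene length and scaled to the same sum in every library. This rule kept 9711 of the 19945 protein-coding genes in the table. Each gene was described by its log2 ratio, computed as the log2 of siNR1D1 TPM plus 1 over siControl TPM plus 1. Without replicate libraries no test was possible, and a difference between the libraries cannot be told apart from a difference between any pair of 8505C cultures.

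The product of NR1D1 is REV-ERB alpha, a clock component and a nuclear receptor whose ligand is heme. It lacks the helix that recruits coactivators and instead recruits the corepressor NCOR1 with the histone deacetylase HDAC3, so genes whose ROR elements it occupies are repressed. BMAL1 is its best known target, and in liver and fat it also acts on genes of lipid metabolism.

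The targeted RNA was lower in the siNR1D1 library, but by less than 2-fold. NR1D1 (ENSG00000126368, GRCh38 chr17:40092787-40100725, minus strand) was measured at 18.2 TPM in the siControl library and 11.2 TPM in the siNR1D1 library. The TPM ratio was 0.616, with a 95% interval of 0.499 to 0.759 from 218 and 160 recovered reads. Intervals of this kind, given for single genes below, cover counting error only. The log2 ratio of NR1D1 was -0.65, within the spread of all genes kept, whose 5th percentile was -0.85. Whether the siRNA lowered NR1D1 was therefore not tested by this pair. THRA, the thyroid hormone receptor alpha gene, overlaps NR1D1 by 1081 bases on the opposite strand, and reads from the shared stretch cannot be assigned if counting ignored strand. THRA was at 22.6 and 27.1 TPM, a ratio of 1.2 (1.08 to 1.32). NR1D2, which encodes the related receptor REV-ERB beta, was at 35.4 and 44.8 TPM, so the paralog transcript exceeded NR1D1 in both libraries.

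Both libraries carried keratin transcripts and few thyroid ones. The thyroid transcription factor gene NKX2-1 was at 63.4 and 100 TPM in siControl and siNR1D1. PAX8, its partner in thyroid cells, was at 0.503 and 0.501 TPM. Of 22 thyroid differentiation genes 15 were under 1 TPM in both libraries, and the iodide transporter SLC5A5 was at 0 in both. The keratin genes KRT8 and KRT18 and the mesenchymal filament gene VIM were abundant in both, and KRT18 was at 556 and 923 TPM. CDH1 and EPCAM, defining genes of intact epithelium, were at 1.84 TPM or less in both. The recovered depth was 14.9 and 17.91 in units of 1e6 reads, and mitochondrial transcripts took 29.28% and 28.6% of all TPM.

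More genes were 2-fold higher than 2-fold lower after the siRNA. Of the 9711 genes, 859 (8.85%) were at least 2-fold higher and 294 (3.03%) at least 2-fold lower. The centre of the distribution barely moved, with a median log2 ratio of 0.02 and 68.1% of genes within 1.5-fold. Of all genes kept, 51.22% had a ratio above 0, the share to set beside such counts for lists below. In such bulk samples fewer cells of a type and less RNA per cell cannot be told apart. The excess of higher genes held at each level of abundance. Among genes at 5 to 10 TPM 11.6% were 2-fold higher and 2.39% lower, and among the 534 genes at 200 TPM or more these shares were 5.24% and 1.12%. Genes past 2-fold rested on at least 26 recovered reads over both libraries, with a median of 1064. The limit itself fell in a dense stretch of values. TICRR, ZYX and ADM lay just inside the higher limit with log2 ratios of 1.0026 to 1.0004, and RIOK3 and PMVK lay just outside it. RBL2, MOSPD1 and HCCS lay just inside the lower limit with -1.0008 to -1.0036, and PNPT1, OXSR1 and RTN3 lay just outside it with -0.9996 to -0.9973. At the limit of 5 TPM, IL7 was kept with a mean of 5.0011 and HEY1 was left out with 4.9935.

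**Figure D1:**
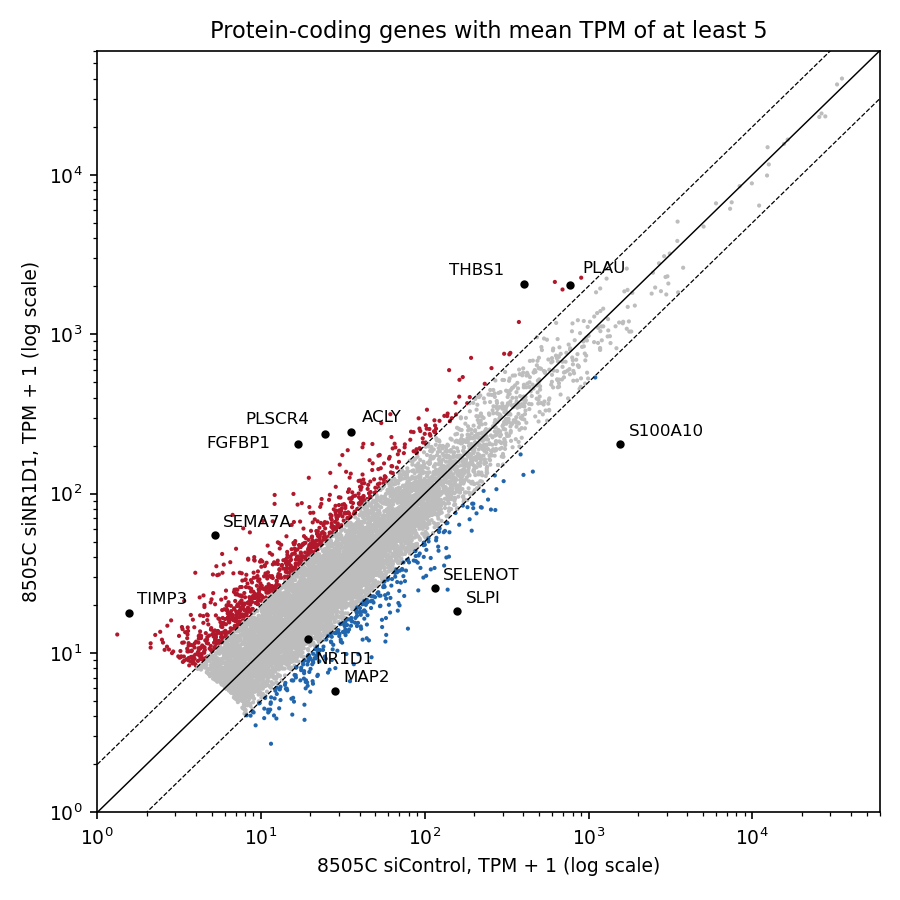
Each point is 1 of 9711 protein-coding genes, with TPM plus 1 in the siControl library on the x axis and in the siNR1D1 library on the y axis, both on log scales. Red points are the 859 genes at least 2-fold higher, blue points the 294 at least 2-fold lower, grey points the rest; the solid line marks equality, the dashed lines 2-fold, and black points carry gene names.

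The gene with the highest log2 ratio was FGFBP1, which encodes a secreted protein that releases fibroblast growth factors from the matrix. It was at 15.9 TPM in siControl and 203 TPM in siNR1D1, a log2 ratio of 3.60. FGF1, a growth factor gene, was itself among the 15 highest, at 0.326 and 12.1 TPM, although only 7 reads stood behind its control value. TIMP3, an inhibitor of matrix metalloproteinases, was at 0.554 and 16.9 TPM, from 11 and 400 recovered reads. The low control counts make both ratios imprecise, and the interval of the TIMP3 ratio ran from 16.9 to 61.6. SEMA7A, a membrane-anchored semaphorin, was at 4.21 and 54.1 TPM. PLSCR4, of the phospholipid scramblase family, was at 23.5 and 236 TPM. ACLY, the enzyme that makes cytosolic acetyl-CoA from citrate, was at 34.5 and 242 TPM. Several other genes among the 15 highest encode secreted or matrix proteins. OLFML2A was at 5.71 and 72.6 TPM, ABI3BP at 11.1 and 97.1 TPM, and PRELP, a proteoglycan of connective tissue, at 2.97 and 30.9 TPM. ADAMTS1, a secreted protease that cleaves proteoglycans, was at 7.55 and 56.1 TPM. G0S2, an inhibitor of fat cell lipase, was at 11.1 and 85.2 TPM.

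At the other end stood SLPI, an inhibitor of leukocyte serine proteases, with 157 TPM in siControl and 17.3 TPM in siNR1D1, a log2 ratio of -3.11. S100A10, the annexin A2 partner that binds plasminogen at the cell surface, was at 1557 and 203 TPM. It was the only one of the 15 lowest genes above 200 TPM in the control library. ANO6, a calcium-activated phospholipid scramblase, was at 77.9 and 13.2 TPM. BAG6, a chaperone for tail-anchored membrane proteins, was at 137 and 24 TPM. SELENOT, a selenoprotein of the endoplasmic reticulum, was at 114 and 24.6 TPM. All 5 were far above the limit of 5 TPM in the control library. MAP2, a microtubule protein of neurons, was at 27.4 and 4.79 TPM. GTF2E1, a subunit of the general transcription factor TFIIE, was at 34 and 5.65 TPM. CGA, the alpha chain shared by thyrotropin and the gonadotropins, was at 17.4 and 2.81 TPM. S100A9 was at 10.5 and 1.7 TPM, from only 26 and 5 recovered reads.

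**Figure D2:**
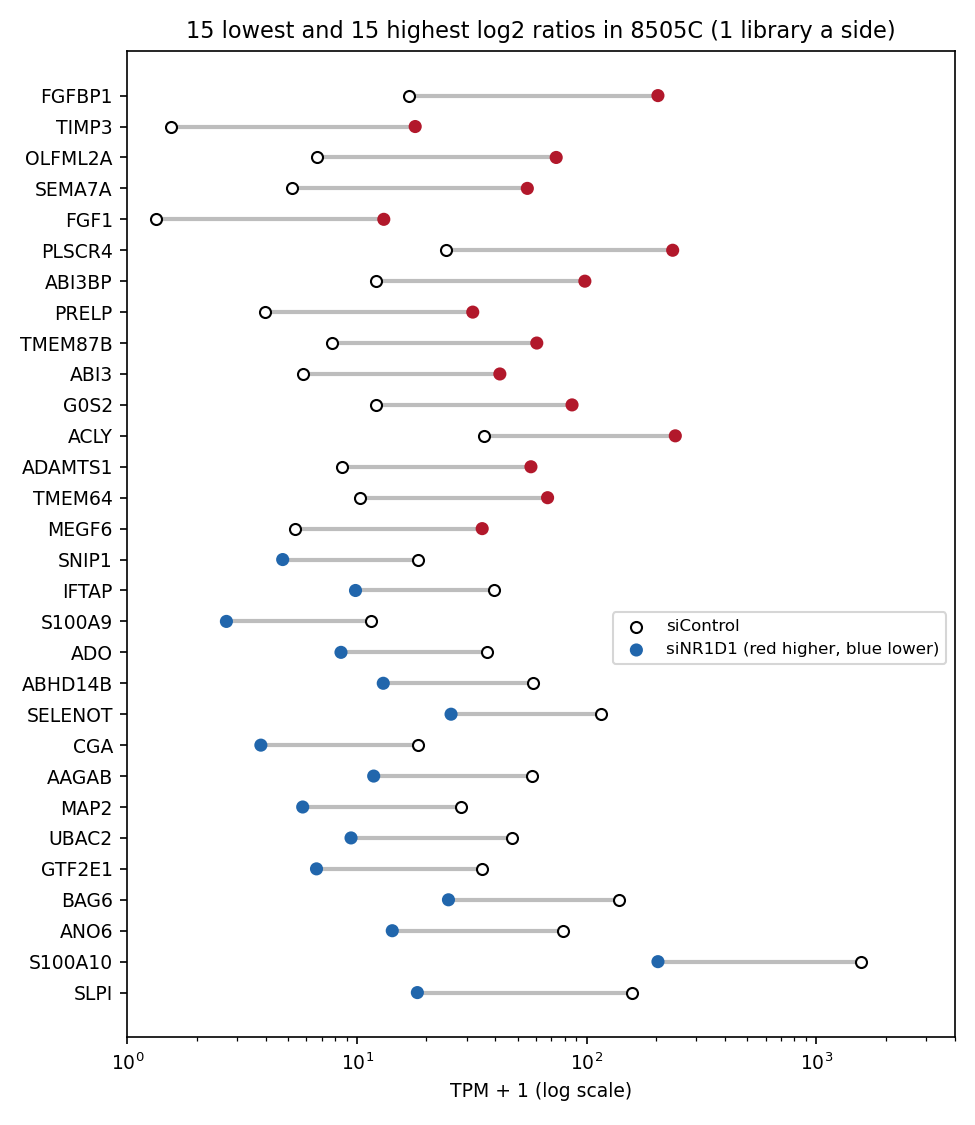
Levels of the 15 genes with the highest and the 15 with the lowest log2 ratio in 8505C, with TPM plus 1 on a log axis; open circles are the siControl library, filled circles the siNR1D1 library (red where higher, blue where lower), 1 library each. FGFBP1 runs from 15.9 to 203 TPM and S100A10 from 1557 to 203 TPM.

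By difference in TPM, mitochondrially encoded genes came first on both sides at ratios within 1.5-fold, with MT-CO1 at 35268 and 40171 TPM and MT-CO2 at 27910 and 23246 TPM. Among nuclear genes THBS1, the matrix glycoprotein thrombospondin 1, went from 404 to 2073 TPM, a difference of 1669 TPM. ACTG1, a cytoplasmic actin gene, followed at 3497 and 5085 TPM, a ratio of 1.45. HMGA1, an architectural chromatin protein, was at 622 and 2127 TPM. LGALS1, which encodes galectin 1, was at 901 and 2261 TPM. PLAU, the urokinase plasminogen activator gene, was at 767 and 2020 TPM, and SCD, the stearoyl-CoA desaturase gene, at 693 and 1907 TPM. Of these, THBS1, HMGA1, LGALS1, PLAU and SCD were more than 2-fold higher. On the lower side EEF1A1, the translation elongation factor that delivers tRNA, was at 11006 and 6412 TPM. FTL, the ferritin light chain, was at 3523 and 1830 TPM, just short of 2-fold. S100A10 was also among the 10 largest differences on this side.

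Few clock genes passed 2-fold. Of 18 core loop genes kept, 2 (11.1%) were 2-fold higher, close to the 8.85% of all genes, and none was 2-fold lower. A total of 13 had a ratio above 0, beside 51.22% of all genes. The median log2 ratio was 0.31 beside 0.02 for all genes. BMAL1, the activator repressed by REV-ERB alpha, was at 12.6 TPM in siControl and 16.9 TPM in siNR1D1, a ratio of 1.34 (1.17 to 1.53). CLOCK, its partner, was at 18 and 14.8 TPM, a ratio of 0.824 (0.75 to 0.904). NPAS2, the alternative partner, was at 4.58 and 6.5 TPM. These activator genes thus lay within 1.5-fold of the control library, on both sides of it. RORA, which encodes an activator that competes for ROR elements, was at 5.59 and 9.91 TPM. The 2-fold higher members were USP2, a deubiquitinase, at 2.82 and 7.91 TPM, and PER1, a repressor of the loop, at 4.17 and 10.6 TPM. The other repressor genes differed less. PER2 was at 6.07 and 6.65 TPM, PER3 at 9.07 and 12 TPM, CRY1 at 8.04 and 9.31 TPM and CRY2 at 14.3 and 10.9 TPM. Among the output factors, TEF, an activator at D-boxes, was at 13.5 and 31 TPM, a ratio of 2.29 (1.99 to 2.63). DBP, of the same family, was at 4.53 and 6.48 TPM. NFIL3, a repressor at the same boxes, was lower, at 118 and 88 TPM.

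The 3 clock genes past 2-fold included 2 whose promoters hold the palindromic E-box CACGTG, the sequence bound by CLOCK and BMAL1. Both are printed to show where the element lies in these higher genes. For TEF, which has 2 starts, the first start with a match was taken. The 200 bases upstream of the start are given 5' to 3' on the gene's strand, from RefSeq on GRCh38.p14, with CACGTG in capitals. PER1 is at chr17:8152405-8152604 (minus strand) and TEF at chr22:41367255-41367454 (plus strand).
PER1: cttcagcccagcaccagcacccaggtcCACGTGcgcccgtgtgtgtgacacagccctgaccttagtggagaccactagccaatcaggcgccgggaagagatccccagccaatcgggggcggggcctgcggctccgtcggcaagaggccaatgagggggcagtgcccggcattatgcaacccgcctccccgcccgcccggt
TEF: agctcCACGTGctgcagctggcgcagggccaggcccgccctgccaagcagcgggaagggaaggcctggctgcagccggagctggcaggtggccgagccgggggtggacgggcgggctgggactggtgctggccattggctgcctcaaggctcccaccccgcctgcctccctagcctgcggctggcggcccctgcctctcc
Over the window from 250 bases before to 50 bases after the start, searched on both strands, CACGTG was present for 5 of 19 clock genes with a promoter in the table, or 26.3%, beside 12.9% of 8017 kept genes. The other holders, BHLHE40, NR1D2 and TIMELESS, did not pass 2-fold, with log2 ratios of 0.30, 0.33 and 0.47. AGGTCA, the core of the ROR element, was present for 5 of 19 as well, beside 12.8% of the 8017. Its holders were BMAL1, CRY2, CSNK1E, NFIL3 and PER1, whose log2 ratios ran from -0.42 in NFIL3 to 1.17 in PER1. A match describes letters in this window, and no binding was measured.

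The corepressor genes that REV-ERB alpha works through lay within 1.5-fold where named here. NCOR1 was at 54.6 and 61.2 TPM, and HDAC3 at 49.7 and 64.4 TPM. TBL1XR1, an exchange factor of the complex, was at 39.1 and 26.3 TPM. None of 10 genes of heme synthesis and breakdown passed 2-fold, and their log2 ratios ran from -0.46 for CPOX to 0.60 for PPOX. ALAS1, the rate-limiting enzyme of heme synthesis and a gene linked to the clock, was at 57.5 and 66.2 TPM.

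Among the 56 gene lists, that of G2/M and mitosis held the most 2-fold higher members. Of 46 G2/M genes kept, 27 were 2-fold higher, none was 2-fold lower, and 45 had a ratio above 0, with a median log2 ratio of 1.10. Beside this the share of all genes 2-fold higher was 8.85%. UBE2C, the ubiquitin-conjugating enzyme of the anaphase-promoting complex, was at 61.6 TPM in siControl and 225 TPM in siNR1D1. CDC20, an activator of that complex, was at 45 and 161 TPM. CENPA, the centromeric histone, was at 7.01 and 27.7 TPM. TOP2A, the topoisomerase that untangles sister chromatids, was at 102 and 335 TPM. The single member below 0 was CDC25B, a phosphatase that activates CDK1, at 287 and 190 TPM. Tubulin and actin genes were all above 0, and 3 of 12 were 2-fold higher, among them TUBA1A at 40.5 and 115 TPM and TUBA1B at 96.2 and 221 TPM.

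Many G2/M promoters hold a CCAAT box, bound by NF-Y, and a cell cycle homology region, TTTGAA, bound by the DREAM and MMB complexes. The promoters of 3 members among the 5 highest are printed to show both elements, in capitals on either strand, where CCAAT reads ATTGG and TTTGAA reads TTCAAA on the other strand. They are from RefSeq on GRCh38.p14, 200 bases upstream of the start, at chr1:43358781-43358980 (plus strand), chr2:26785856-26786055 (plus strand) and chr17:40417897-40418096 (minus strand).
CDC20: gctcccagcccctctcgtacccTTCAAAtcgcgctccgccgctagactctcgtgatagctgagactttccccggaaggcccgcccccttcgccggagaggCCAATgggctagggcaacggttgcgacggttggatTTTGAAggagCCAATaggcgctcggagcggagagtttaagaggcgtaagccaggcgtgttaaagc
CENPA: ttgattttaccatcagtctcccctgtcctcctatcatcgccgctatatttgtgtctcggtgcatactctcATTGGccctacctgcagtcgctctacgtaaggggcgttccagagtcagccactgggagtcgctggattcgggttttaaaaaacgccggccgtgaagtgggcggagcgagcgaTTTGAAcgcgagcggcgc
TOP2A: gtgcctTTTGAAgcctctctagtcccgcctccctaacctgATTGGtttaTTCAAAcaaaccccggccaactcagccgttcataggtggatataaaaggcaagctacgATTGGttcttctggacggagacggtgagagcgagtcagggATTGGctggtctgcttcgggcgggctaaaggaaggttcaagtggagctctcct
In the same window and on both strands, CCAAT was present for 31 of 38 G2/M genes with a promoter in the table (81.6%), beside 44% of the 8017 kept genes. TTTGAA was present for 27 of 38 (71.1%), beside 13.6%. Both were present for 23 of 38 (60.5%), beside 7.63%. Of the 23 members 2-fold higher with a promoter in the table, 18 held CCAAT and 15 held TTTGAA, so neither was more frequent among them than in the whole list.

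Few DNA replication genes passed 2-fold, and most histone genes were lower. Of 29 G1/S and replication genes 4 (13.8%) were 2-fold higher, not far from the 8.85% of all genes, and none was lower, with a median of 0.47. CDT1, which licenses replication origins, was at 6.63 and 30.6 TPM. CCND1, the cyclin of early G1, was at 255 and 612 TPM. RRM2, a ribonucleotide reductase subunit that peaks in S phase, was at 30.6 and 27 TPM. Of 13 replication-dependent histone genes 8 (61.5%) were 2-fold lower, beside 3.03% of all genes, none was 2-fold higher and the median was -1.21. The most abundant, H2BC12, was at 574 and 331 TPM, and H2AC6 was at 269 and 77.9 TPM. H1-2, a linker histone, was at 206 and 74.2 TPM. Transcripts of these genes mostly lack poly(A) tails, and the labels do not say whether poly(A) RNA was selected. Histone genes are near-identical copies, so reads may be split among them. CDKN1A, which encodes the cyclin-dependent kinase inhibitor p21, was at 14.2 and 34.4 TPM.

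Output genes of the MAPK pathway, the cascade driven by mutant BRAF in many thyroid cancers, were also higher as a group. Of 22 kept, 12 (54.5%) were 2-fold higher, beside 8.85% of all genes, and none was lower. A total of 21 were above 0, and the median was 1.04. ETV4, a transcription factor downstream of ERK, was at 27.6 TPM in siControl and 109 TPM in siNR1D1. FOSL1, an AP-1 subunit stabilised by ERK, was at 73.5 and 178 TPM. EPHA2, a receptor tyrosine kinase, was at 106 and 235 TPM. DUSP6, the phosphatase that feeds back on ERK, differed less, at 150 and 181 TPM. SPRED1, an inhibitor of RAS signalling, was the 1 member below 0, at 112 and 91.4 TPM. Upstream, the ligand and receptor lists differed. Of 6 EGFR ligand genes 4 were below 0, not far from the even split of all genes, of which 51.22% were above 0. The ligand median was -0.23. HBEGF was the only one 2-fold higher, at 33.8 and 125 TPM, while EREG was at 287 and 228 TPM and BTC at 7.6 and 3.81 TPM. EGFR itself was at 69.4 and 31.9 TPM. KIT, the stem cell factor receptor, was at 4.25 and 19.2 TPM. Of the 16 receptor tyrosine kinase genes kept, 14 were above 0, with a median of 0.80. A total of 6 (37.5%) were 2-fold higher, beside 8.85% of all genes, and EGFR was the only one 2-fold lower.

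Genes of cholesterol synthesis were mostly higher, and those of fatty acid synthesis split. Of 25 genes of cholesterol synthesis and uptake 14 (56%) were 2-fold higher, beside 8.85% of all genes, and none was lower, with a median of 1.04. DHCR7, the last enzyme of the Kandutsch-Russell branch, was at 25.3 and 97.3 TPM. MVD, the mevalonate decarboxylase, was at 9.18 and 36.6 TPM. HMGCS1, which makes the substrate of HMG-CoA reductase, was the single member below 0, at 39.3 and 31 TPM. Of 21 fatty acid and glycerolipid genes 7 (33.3%) were 2-fold higher, 1 was 2-fold lower and 7 in all were below 0, with a median of 0.63. FASN, the fatty acid synthase, was at 40.7 and 194 TPM. SREBF1, which encodes the regulator SREBP1, was at 25.5 and 72.8 TPM. By contrast ACACA, the carboxylase between ACLY and FASN, was at 30.2 and 19.5 TPM. ELOVL6, a fatty acid elongase, was at 17.3 and 6.48 TPM. The sterol regulatory element TCACCCCAC was present in 1 of 19 cholesterol gene promoters, that of SREBF2, beside 0.524% of the 8017.

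Extracellular matrix genes leaned higher in each of their lists. Of 34 matrix glycoprotein and crosslinker genes 11 (32.4%) were 2-fold higher and none lower, beside 8.85% and 3.03% of all genes, with a median of 0.77. BGN, the proteoglycan biglycan, was at 10.8 TPM in siControl and 66.1 TPM in siNR1D1. FBLN1, a basement membrane protein, was at 19 and 74.7 TPM. FN1, which encodes fibronectin, was at 840 and 691 TPM. Of 10 collagen genes 4 (40%) were 2-fold higher. COL13A1, a transmembrane collagen, was at 14.4 and 62.6 TPM, and COL5A1 at 99 and 236 TPM, whereas COL8A1 was at 209 and 115 TPM. Of 24 matrix proteases and their inhibitors 11 (45.8%) were 2-fold higher and 1, S100A10, was lower. Within this list the plasminogen system moved in both directions. PLAT, the tissue plasminogen activator, was at 140 and 594 TPM. PLAUR, the urokinase receptor, was at 40.7 and 131 TPM. ANXA2, the binding partner of S100A10, was at 1229 and 1119 TPM. So the activators and the receptor were higher, while the cell surface binding subunit was lower. Among integrins ITGB5 was at 41.7 and 115 TPM and ITGB1 at 1480 and 815 TPM.

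Genes of NRF2 regulation and of the antioxidant defence it controls lay mostly below 0. Of 20 kept, 3 (15%) were 2-fold lower, beside 3.03% of all genes, and none was higher, 14 were below 0 and the median was -0.49. GCLC, the catalytic subunit of glutathione synthesis, was at 33 and 12.6 TPM. NQO1, a quinone reductase, was at 390 and 223 TPM. NFE2L2, the gene of NRF2 itself and 1 of the 3 lower members, was at 98 and 48.1 TPM, a log2 ratio of -1.01. KEAP1, a list member that targets NRF2 for degradation, was at 41 and 52.7 TPM. The core of the antioxidant response element, TGACNNNGC, was present in 6 of 15 promoters of the list (40%), beside 19.8% of the 8017. GSTP1, a glutathione transferase, held it and was higher, at 256 and 415 TPM. Most cytosolic ribosomal protein genes were also below 0. Of 77 kept, 69 were below 0, none passed 2-fold either way, and the median was -0.38. Log2 ratios ran from -0.81 for RPS6 to 0.29 for RPL13.

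**Figure D3:**
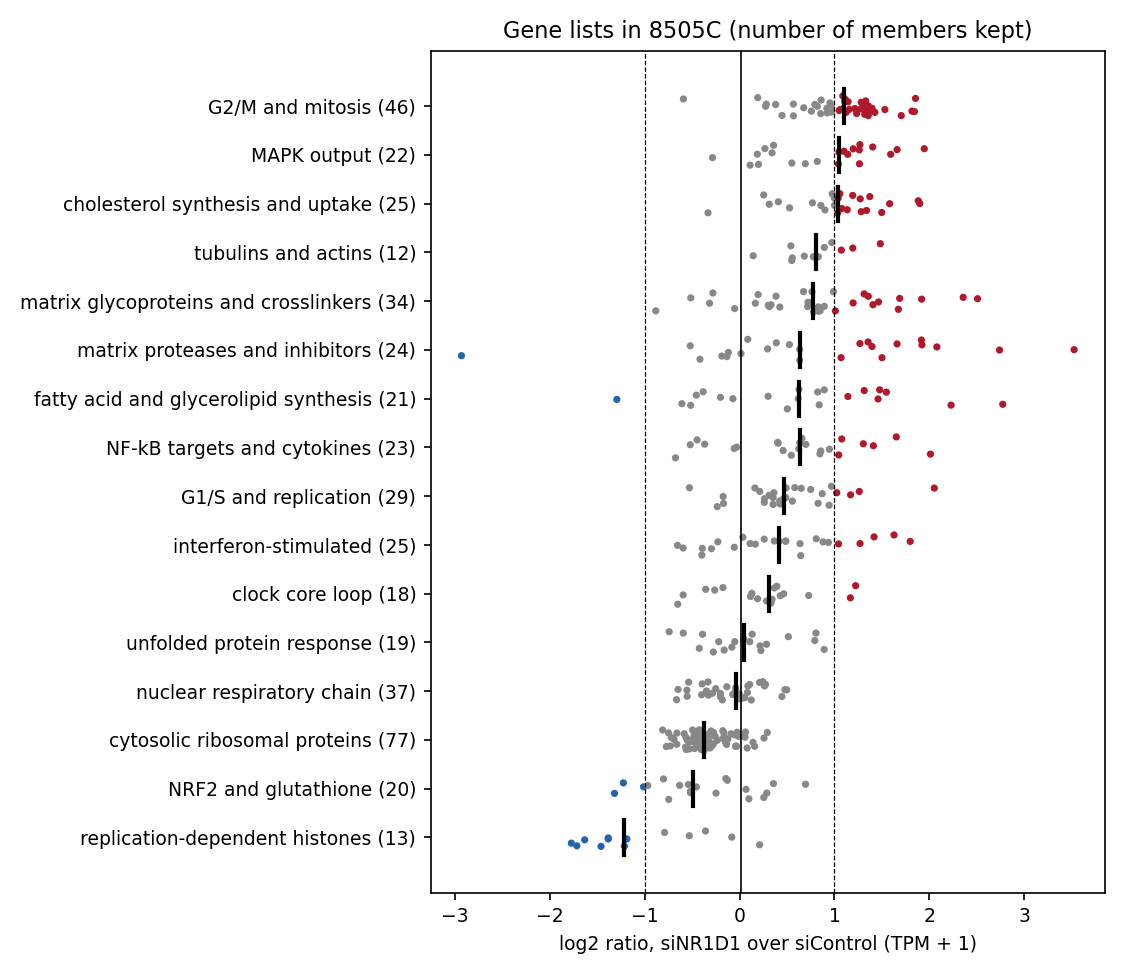
Log2 ratios of the members of 16 gene lists in 8505C on the x axis, 1 point per gene, red where at least 2-fold higher, blue where at least 2-fold lower; thick bars are list medians, the solid line is the median of all genes, dashed lines are 2-fold, and vertical scatter within a list has no meaning. G2/M, MAPK output and cholesterol genes have medians of 1.10, 1.04 and 1.04, and histones -1.21.

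Transcript composition moved with these ratios. The median GC content of the reference transcript was 57.9% for genes 2-fold higher, 44% for genes 2-fold lower and 48.1% for all genes kept. The genes were put in 5 equal groups by GC content. In the top group, from 58.1% to 74.5%, 422 genes (21.7%) were 2-fold higher and 10 (0.515%) were 2-fold lower. In the lowest group these shares were 5.05% and 4.27%, and the median log2 ratio was -0.18 beside 0.55 in the top group. The part of GC content in the results above was not tested. With each gene's ratio taken relative to the median of its GC group, an adjustment chosen after seeing the data, the counts were 631 higher and 256 lower. The lists named above differed in GC content. G2/M transcripts had a median of 43% and a list median of 1.24 after this adjustment. MAPK output genes had 53.3% and 0.70, cholesterol genes 50.5% and 1.11, and tubulins and actins 56.2% and 0.54. Histones had 48.8% and -1.19. Each of these lists kept its sign.

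**Figure D4:**
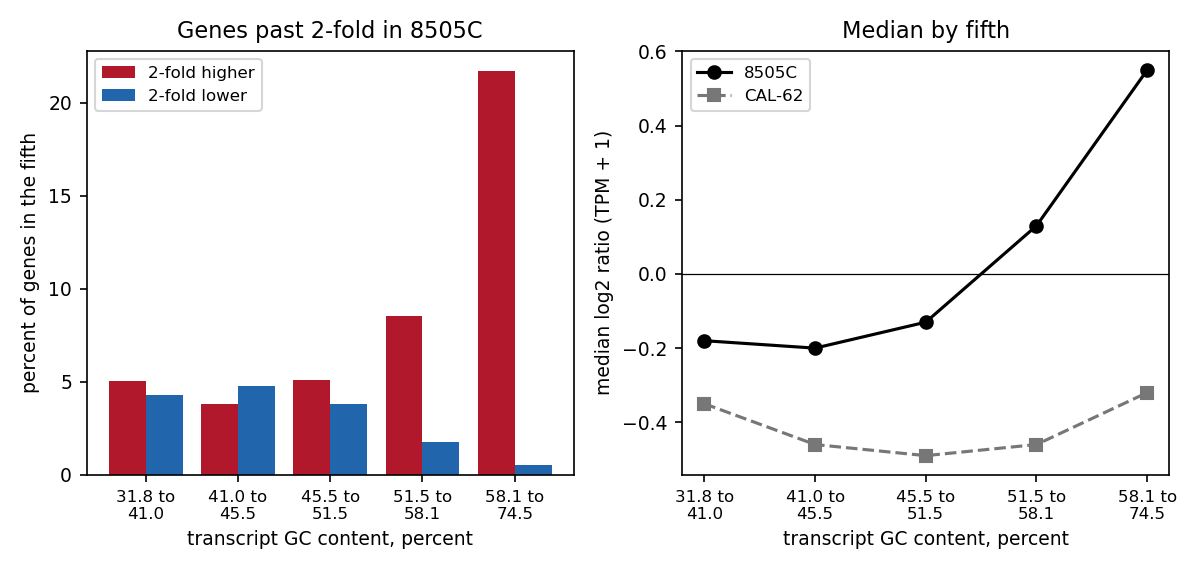
Genes in 5 equal groups by GC content of the reference transcript (x axis, percent): left, bars give the percent of genes at least 2-fold higher (red) and lower (blue) in 8505C; right, median log2 ratio in 8505C (circles) and CAL-62 (squares). In 8505C the top group has 21.7% higher genes and a median of 0.55, while in CAL-62 its median is -0.32.

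A short sequence was more frequent in the 3' untranslated regions (UTRs) of the lower genes. ATGAGCA had been picked earlier on these same libraries, so its frequency here is a description and no independent support. It was present in the 3' UTR of 89 of 291 genes 2-fold lower (30.6%), 51 of 853 genes 2-fold higher (5.98%) and 10.1% of all genes with a UTR. The share of genes 2-fold lower was 2.33% without a site, 7.72% with 1 site and 18.2% with 2 or more. Median UTR lengths in these classes were 1038, 2884 and 4982 bases, so the rise was not matched for length. In CAL-62, the second line treated with NR1D1 siRNA, 16.1% of genes with a site and 10.8% of those without were 2-fold lower, with median log2 ratios of -0.45 and -0.42. Lower genes also had longer UTRs, with a median of 1702 bases beside 1172 for all genes. Within UTRs of 500 to 1500 bases, 11.5% of genes with a site and 1.96% of those without were 2-fold lower. Above 1500 bases these shares were 8.73% and 2.68%, at median lengths of 3563 and 2662 bases. Whether an siRNA seed matches the sequence was not tested, since the siRNA sequence was not given. Of the 15 lowest genes 4 carry the heptamer, and their sites are printed because these are the genes that differ most. Each is given 5' to 3' on the gene's strand, from GENCODE 29 transcripts on GRCh38, with the heptamer in capitals.
S100A10 at chr1:151983140-151983162, minus strand: gcagaaATGAGCAgttcgctcct
S100A10 at chr1:151983053-151983079, minus strand: gaaggatttcATGAGCAgatcaggaca
ANO6 at chr12:45432149-45432175, plus strand: gtaaaaatgtATGAGCAgcttaactga
ANO6 at chr12:45432306-45432332, plus strand: ttttataattATGAGCAttttaataaa
SELENOT at chr3:150629004-150629030, plus strand: gaaatgttccATGAGCAtttcctttga
ADO at chr10:62805960-62805986, plus strand: atctactggaATGAGCAgcagccgctt
ADO at chr10:62808405-62808431, plus strand: ggaaagactaATGAGCAcaatgatatt
In S100A10 both sites lie close to the stop codon, the first 7 bases after it. SLPI, the lowest gene of all, has a 3' UTR of 176 bases without the heptamer, and BAG6, GTF2E1 and MAP2 lack it as well. Without all carriers 808 genes were 2-fold higher and 205 lower.

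The summed levels of markers of 4 other cell types were higher in the siNR1D1 library, although a few members under 5 TPM were lower. The 10 endothelial markers summed to 139.7 TPM in siControl and 376.7 TPM in siNR1D1, of which CDH5 made up 46.8 and 140 TPM and ENG 80.6 and 217 TPM. Other defining endothelial genes were also higher but at low levels. PECAM1 was at 2.66 and 5.15 TPM, VWF at 0.0223 and 0.374 TPM, TEK at 0 and 0.445 TPM and KDR at 0.141 and 0.207 TPM. CLDN5 was at 0.0676 and 0.0567 TPM, from 1 recovered read in each library. The 8 mural markers summed to 44.82 and 128 TPM, and the 10 fibroblast markers to 69.44 and 111 TPM. The 12 immune markers summed to 25.46 and 95.74 TPM, most of it CD14, at 22.3 and 85.2 TPM. PTPRC, carried by all leukocytes, was at 0 and 0.0212 TPM, and CD8A and MS4A1 were at 0 in both. Among the fibroblast markers LUM was lower, at 4.34 and 2.84 TPM. Among the mural markers PDGFRB was higher, at 0.519 and 8.23 TPM, from 16 and 302 recovered reads. NOTCH3 was at 0.739 and 2.73 TPM, CSPG4 at 10.8 and 35 TPM and MCAM at 30.2 and 79.7 TPM. RGS5 was near equal, at 2.03 and 1.97 TPM, as was ABCC9, at 0.0997 and 0.0837 TPM. DES was lower, at 0.47 and 0.237 TPM, but from only 5 and 3 reads. The 4 neural markers kept split, 2 above and 2 below 0, from MAP2 at -2.30 to the adhesion gene NTM at 2.64 on the log2 scale. The 4 sums moved in the same direction as the matrix genes, and their part in that result was not tested.

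CAL-62, a second anaplastic thyroid carcinoma line, was treated with NR1D1 siRNA or control siRNA in the same study, under the same genotype labels, and is set beside 8505C, again with 1 library a side. In CAL-62, 202 of 8670 genes kept (2.33%) were 2-fold higher and 955 (11.0%) were 2-fold lower, with a median log2 ratio of -0.40. On the TPM scale its balance was thus opposite to that of 8505C. Mitochondrial transcripts took 57.22% and 67.85% of TPM in CAL-62 siControl and siNR1D1. TPM has a fixed sum, so a larger mitochondrial share leaves less for nuclear genes. CAL-62 was not rescaled for this, and its part in the opposite balance was not tested. Of the 230 genes 2-fold lower in 8505C and kept in CAL-62, 145 (63%) were 2-fold lower in CAL-62 and none was 2-fold higher, beside 11.3% of all genes kept in both that were lower. They made up 15.2% of the CAL-62 lower genes. Of the 576 genes 2-fold higher in 8505C and kept in CAL-62, 91 (15.8%) were 2-fold higher and 11 (1.91%) 2-fold lower, beside 1.88% and 11.3% of all. They made up 45% of the CAL-62 higher genes. S100A10 was at 339 and 41.1 TPM in CAL-62, and SELENOT at 102 and 14.5 TPM. SEMA7A was at 41.5 and 252 TPM. FGFBP1 went the other way, at 144 and 41.3 TPM. SLPI, the lowest gene in 8505C, was at 25.9 and 27 TPM.

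**Figure D5:**
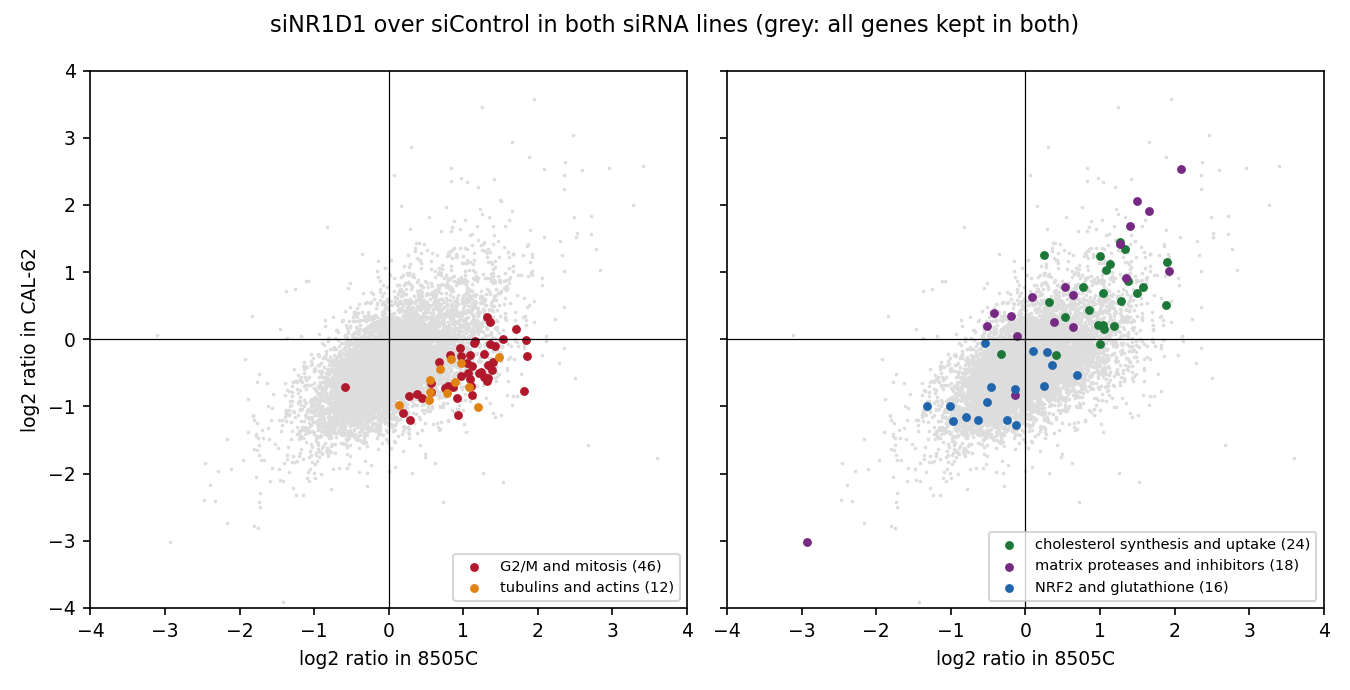
Log2 ratio after NR1D1 siRNA in 8505C (x axis) and CAL-62 (y axis) for genes kept in both lines (grey), with list members coloured and the number kept given in each key. G2/M genes lie to the right and mostly below 0 in CAL-62 (medians 1.10 and -0.50), and cholesterol genes lie to the right and mostly above 0 (1.04 and 0.62).

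The lists differed in whether both lines shared a direction. Cholesterol genes had a median of 1.04 in 8505C and 0.62 in CAL-62. Matrix glycoproteins had 0.77 and 0.88, and matrix proteases 0.63 and 0.64. Collagens had 0.56 and 1.35, integrins 0.84 and 0.49, fatty acid genes 0.63 and 0.22, and receptor tyrosine kinases 0.80 and 0.30. Cytosolic ribosomal proteins had -0.38 and -1.22. Histones had -1.21 and -0.85, and NRF2 genes -0.49 and -0.84. Some lists had opposite signs in the 2 lines. G2/M genes had 1.10 and -0.50, MAPK output genes 1.04 and -0.33, and tubulins and actins 0.80 and -0.68. G1/S genes had 0.47 and -0.41, and core clock genes 0.31 and -0.34. The CAL-62 median over all genes was itself -0.40, so these lists lay near or below the centre there and above it in 8505C. With 1 library per group the difference between lines was not tested.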

How the data were processed

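RNA was extracted with Trizol, with RNA integrity numbers of at least 6.8, per the labels' protocols. Per the submitters' processing notes, the tools were FastQC, MultiQC, Trimmomatic 0.38 and featureCounts 2.0.0, and the build was GRCh38. Aligner, annotation release and strandedness are not given in the sources used here. Values deposited by the authors were TPM per gene, and no counts were used. Read numbers behind each value were recovered as TPM times union exon length in GENCODE 29, on the scale at which small values became whole: 72.6% and 73.6% of values were within 0.02 of a whole number in siControl and siNR1D1, and 92.7% and 93.2% of values of 1 to 10 reads. They served only for exact 95% intervals of a ratio. Genes were kept at a mean of at least 5 TPM and compared as log2(TPM + 1), with a pseudocount of 1 and a limit of 2-fold. No p-value was computed, and precision rests on 1 library a side. Named genes were the 15 highest and 15 lowest, up to 5 at each end of each of 56 lists, all clock, corepressor, heme and marker genes, 3 on each side of each limit, and the 10 largest TPM differences each way. The gene lists and members were chosen with earlier results of these data known. Alternatives varied the pseudocount, filter, scaling and threshold. Calculations used Python 3.11.15, pandas 2.3.3, numpy 2.4.6 and scipy 1.17.1 and were tested on simulated data. The vector libraries of TPC-1 and FTC-133 were not used here. Some genes that the naming rule selects are not reported here.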

Additional observations from a re-analysis of the deposited data

Results flagged for a closer look

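Some genes and lists moved one way in 8505C and the other way in CAL-62, each with 1 library a side, and none of these differences was tested. FGFBP1 had a log2 ratio of 3.60 in 8505C and -1.78 in CAL-62. F3, the tissue factor gene, had 1.40 and -1.11, and EGR1, an immediate early transcription factor, had 1.04 and -1.39. TUBA1B had 1.19 and -1.0. The G2/M and mitosis list had a median of 1.10 in 8505C and -0.5 in CAL-62. The immediate early and AP-1 list had 0.50 and -0.91, and tubulins and actins had 0.80 and -0.68. The median over all genes was 0.02 in 8505C and -0.40 in CAL-62.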

How the results depend on the processing

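The count of 859 genes 2-fold higher was 506 with a pseudocount of 5 TPM, 451 with a mean of at least 20 TPM, 1947 at 1.5-fold and 196 at 3-fold. The count of 294 lower was 163, 184, 1151 and 55 under the same settings. Under the other settings, a pseudocount of 0.1 TPM, looser filters, 3 rescalings, GC adjustment and removal of heptamer carriers, the counts ran from 631 to 1228 higher and from 205 to 376 lower, so that higher genes outnumbered lower ones throughout. The rescalings changed the scale of siNR1D1 relative to siControl by -0.020, -0.027 and -0.017 in log2. The last, over nuclear protein-coding genes, also raised both libraries before the pseudocount was added. It was thus no uniform shift of log2 ratios, and both counts rose, to 871 higher and 319 lower. NR1D1 had a log2 ratio of -0.65, and -0.69 to -0.52 under its alternatives. Of 440 alternative list medians 439 moved by less than the standard deviation of the members' log2 ratios. This limit is wide beside the shifts of the rescalings, so those settings could hardly exceed it. The exception was the mitochondrially encoded list, at -0.13 and at 0.07 with GC adjustment; the cause was not tested. Of 529 named genes, 51 no longer passed 2-fold with a pseudocount of 5 TPM. None past 2-fold changed sign, but neither a changed pseudocount nor shifts this small could reverse such a ratio. GC adjustment and removal of heptamer carriers were chosen after seeing the data. No paired analysis was possible because each group had 1 library. Depth limits genes with few reads, such as FGF1, TIMP3 and S100A9, and between-culture variation was not measured.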

Other observations

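Of 18 semaphorin and plexin genes, which encode guidance cues and their receptors, 6 (33.3%) were 2-fold higher and 1 was lower, with 16 above 0 and a median log2 ratio of 0.70 in 8505C. PLXND1 was at 26 TPM in siControl and 71.6 TPM in siNR1D1, and SEMA3C was at 108 and 38.5 TPM. Among cytokine and NF-kB genes 6 of 23 were 2-fold higher and none lower, beside 8.85% and 3.03% of all genes. CXCL8, a neutrophil chemokine gene, was at 304 TPM in siControl and 753 TPM in siNR1D1, and CSF3, a granulocyte growth factor gene, was at 5.11 and 23.6 TPM. PTGS2, the inducible cyclooxygenase gene, was at 138 and 86.1 TPM. Among interferon-stimulated genes 5 of 25 were 2-fold higher and none lower. IFIT2 was at 29.6 and 93.5 TPM, whereas IFITM1 was at 966 and 733 TPM. PSMB10, a subunit of the immunoproteasome, was at 10.5 and 28.9 TPM.

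Single members stood far from their lists. HSPB1, a small heat shock protein gene, was at 60.6 and 314 TPM, while 22 of 27 chaperone genes were below 0. LAMP3, a lysosomal membrane protein gene, was at 15.7 and 84.3 TPM, in a lysosomal list with a median of 0.14. In glycolysis, PGAM1, a phosphoglycerate mutase gene, was at 456 and 136 TPM, and SLC16A3, a lactate exporter gene, was at 39.1 and 86.2 TPM. PAICS, an enzyme of purine synthesis, was at 134 and 44.5 TPM. ZEB1, a repressor of epithelial genes, was at 21.5 and 10.8 TPM, the only 1 of 12 mesenchymal genes kept that lay below 0. Its paralog ZEB2 was at 4.5 and 10.1 TPM. JUP, a junction protein gene, was at 90.7 and 296 TPM, in an epithelial list with a median of 0.45.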
